A study of Rattus norvegicus with 8 samples.

Results

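Keratins are the intermediate filament proteins of epithelial cells, and their messages were examined here in lung tumors, in normal lung tissues and in blood of rats treated with NNK, a nitrosamine carcinogen of tobacco smoke. The members were all mRNA probes of the array whose RefSeq accession belonged to a rat gene with a symbol made of Krt and a number. This rule gave 42 keratin genes, each with 1 probe and 1 spot, of 15323 mRNA probes and 24684 probes in all. Krt5, Krt7 and Krt10 matched no probe and were not analysed here.

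The array, an Arraystar rat design on the Agilent platform, measured long non-coding RNA and mRNA in 8 samples of male F344 rats at week 95. The 3 lung tumors (lung cancer tissue in the labels) came from rats treated with NNK and were moderately differentiated adenocarcinomas by the study's methods. The 3 normal lung tissues came from NNK-treated rats as well and were labelled as their matched counterparts, so that neither lung group was free of the carcinogen. The blood samples were clots of whole blood, 1 from the control group and 1 from the NNK treatment group. The free-text description of the NNK blood sample repeats that of a lung tumor, and its other labels (title, source and tissue) name it a clot. The ages of the rats and the NNK dose are not given in the sources used here.

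A keratin filament is built from pairs of 1 type I and 1 type II chain. Epithelia of a single cell layer, such as the alveolar and airway lining, are known for Krt8 and Krt7 paired with Krt18 and Krt19, whereas stratified epithelia build Krt5 with Krt14 in the basal layer and Krt1, Krt2, Krt9, Krt10, Krt4 or Krt13 in the upper layers. The hair follicle has its own sets for the root sheath and for the hard shaft. In the reference annotation the 42 genes lay in both of the known clusters, 19 on chromosome 7 and 23 on chromosome 10. Krt8 and Krt18 were direct neighbours among protein-coding genes, although they code for opposite chain types, and Krt15 and Krt19 were neighbours too.

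In general, several properties of the arrays bear on each value below. A probe counted as well above background where the scanner software marked its spot so. Spots that the software marked as outliers in uniformity or population were left out, and these made up 4.92% to 8.62% of the well-measured spots on the normal lung arrays but 15.9% to 25.3% on the tumor arrays. The 3 normal lung arrays and lung tumor 1 shared 1 slide, lung tumors 2 and 3 a second, and the blood arrays another. Over probes printed 3 times, the squared difference between arrays was 0.576 times the spot noise for lung tumors 2 and 3, and 1.06 and 0.801 times that noise for normal lung 2 against normal lungs 1 and 3. Normal lungs 1 and 3 differed by 1.36 times the noise, and lung tumor 1 by 5.84 and 6.07 times from the other tumors. Arrays that differed by at most 1.1 times the spot noise were therefore also counted as 1 sample, with normal lungs 1 and 3 joined through normal lung 2, which left 1 normal and 2 tumor samples, and the p-values over 6 arrays measure only the spread between these arrays, which may be technical. The labelled tissues carried their markers in the red blood cell and type 2 alveolar lists. Red blood cell genes summed to a signal of 1449720 and 1435440 in blood and 139955 to 232263 in lung. Type 2 alveolar genes summed to 2828 and 9110 in blood and 784603 to 1038010 in lung. Not every list did so. Ciliated cell genes summed to 155453 and 180868 in blood, mostly through Rsph1 at 155232 and 180375, and to 57133 to 134836 in lung. B cell genes summed to 5.64 in control blood and 135 in NNK blood, and to 8.59 to 36.3 in lung. Neutrophil genes summed to 13255 in control blood and 71579 in NNK blood, mostly through S100a8, and to 13743 to 14366.5 in normal lung and 3299 to 4065 in tumors. The part of this difference between the blood arrays in their keratin values was not tested.

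The share of keratins detected lay below that of all mRNA probes on every array. On a lung array, 15 to 17 of the 42 keratins were well above background (35.7% to 40.5%), against 72.3% to 76.5% of all mRNA probes. In blood the count was 16 in the control and 14 in the NNK sample, against 60.3% and 61.6% of mRNA probes. A set of 13 keratins was well above background on all 6 lung arrays, and 13 keratins were so on no array of the series. All 6 simple-epithelium keratins were detected on at least 1 lung array, and this held for 3 of 4 basal and stress keratins, 3 of 8 keratins of differentiated layers, 4 of 7 of the root sheath, 7 of 13 of the hair shaft and 2 of 4 others. These shares were described and not tested.

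**Figure D1:**
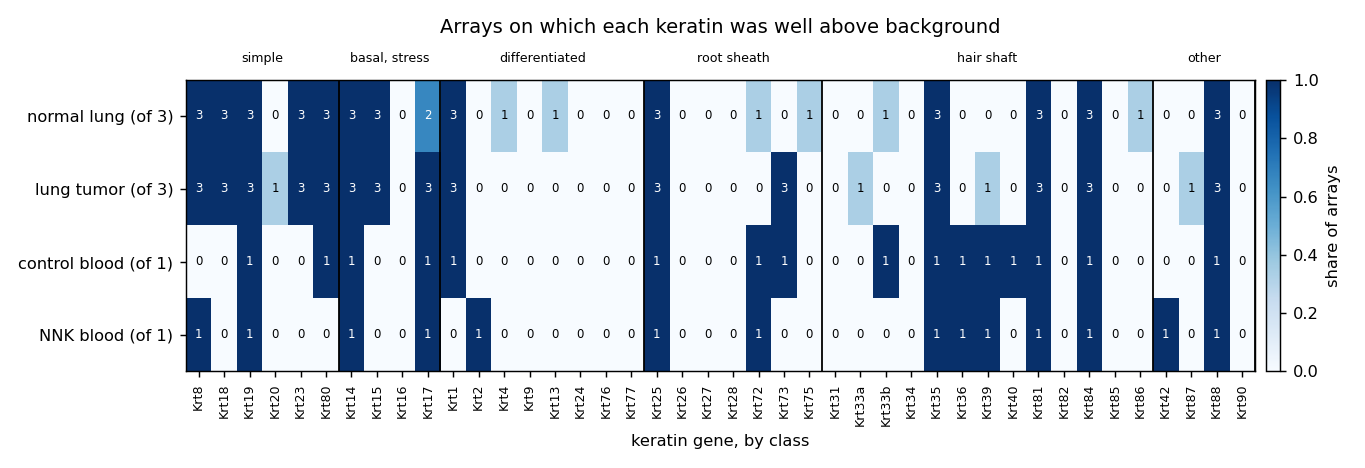
Number of arrays on which each of the 42 keratin probes was well above background, in the 3 normal lung, 3 lung tumor, 1 control blood and 1 NNK blood arrays (rows), with the keratins ordered by class (columns) and the colour giving the share of arrays. Krt8, Krt18, Krt19, Krt23 and Krt80 were detected on all 6 lung arrays, and the hair shaft keratins Krt36 and Krt40, with Krt2 and Krt42, were detected in blood only.

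In the lung, 15 keratins passed the filter, which asked for a signal well above background on 3 or more of the 6 arrays, and were tested. The other 27 were not, of which 10 were detected on 1 or 2 lung arrays and 17 on none. Compared with normal lung tissues, 4 keratins were higher in lung tumors (Krt8, Krt18, Krt23 and Krt73) and 1 was lower (Krt15), by limma with a fold change of at least 2 and a Benjamini-Hochberg adjusted p of at most 0.05 over all 12471 probes tested. The same rule called 13.5% of all probes higher and 15.5% lower, beside 26.7% and 6.67% of the tested keratins. Since Krt73 passed the filter only through its tumor arrays, the count over keratins detected in both groups was 3 higher and 1 lower of 14. The unadjusted p gave the same 4 and 1. The log2 fold change was positive for 13 of the 15 and negative for 2, with a median of 0.59 beside 0.07 over all probes tested. Both the 13 and the median of 0.59 include Krt73, and the share of positive values over all probes was not counted. In bulk tissue, fewer cells of a type and less RNA per cell cannot be told apart, which holds for every lung value below.

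**Figure D2:**
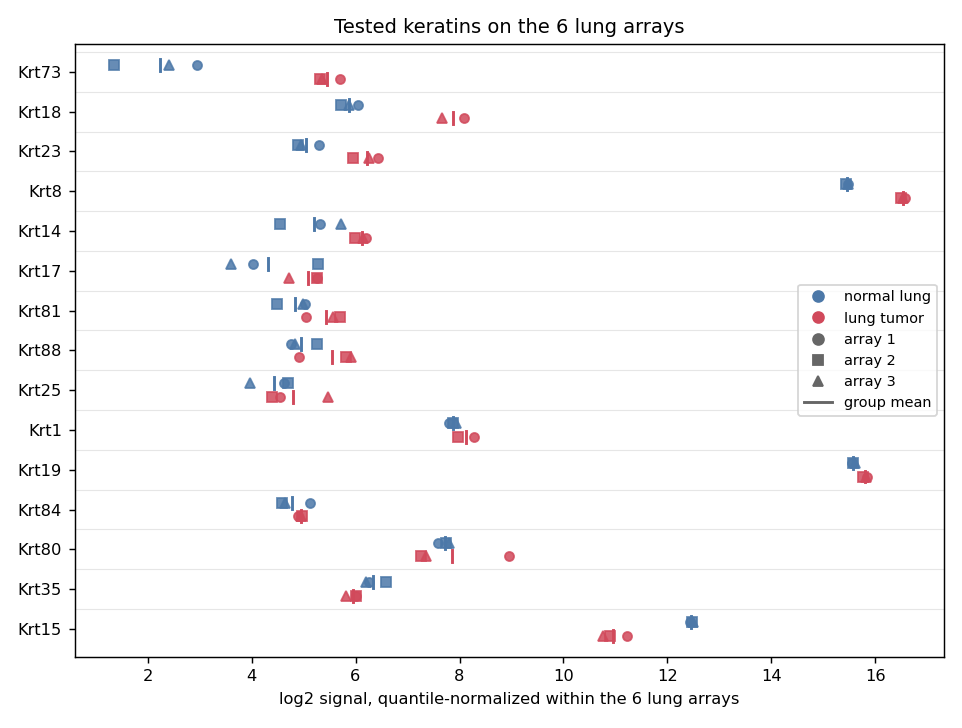
The log2 signal of the 15 tested keratins on each of the 6 lung arrays (x axis, quantile-normalized, no unit), with normal lung in blue, lung tumor in red, the marker shape giving the array number and a bar the group mean. Krt8, Krt18, Krt23 and Krt73 had every tumor array above every normal array, Krt15 every tumor array below, and Krt80 had lung tumor 1 apart from the other tumors.

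The simple-epithelium keratins held 3 of the 4 increases and 5 of the 15 keratins tested, where 13.5% of all probes were called higher. For Krt8, the type II keratin of simple epithelia, the normalized log2 signal was 15.47, 15.43 and 15.47 in normal lungs 1 to 3 and 16.57, 16.49 and 16.52 in lung tumors 1 to 3. All tumors thus lay above all normal lungs, and the spread within a group was small. The log2 fold change was 1.07 ± 0.0509 (SE, n = 3 and 3 arrays), a 2.10-fold increase with a limma adjusted p of 2.99e-05. Its partner Krt18, a type I chain, read 6.04, 5.73 and 5.87 in normal lungs and 8.09 and 7.67 in lung tumors 1 and 3. Lung tumor 2 was left out of this value because its spot was marked as an outlier. The log2 fold change of Krt18 was 2.00 ± 0.171 (SE, n = 3 and 2 arrays), with a limma adjusted p of 0.000704, and it was 1.97 with the marked spot kept.

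Krt23, a type I keratin known from glandular epithelia and from injured liver, read 5.30, 4.89 and 4.96 in normal lungs on the log2 scale and 6.44, 5.96 and 6.26 in tumors. The groups did not overlap, and the log2 fold change was 1.17 ± 0.17 (SE, n = 3 and 3 arrays, limma adjusted p of 0.00213). With normexp background correction in place of the processed signal it was 0.35, under the fold threshold.

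Krt19, the short type I keratin of ducts and airways, differed little in size. It read 15.54, 15.57 and 15.61 in normal lungs and 15.83, 15.77 and 15.82 in tumors, so the groups were apart but by a log2 fold change of only 0.23 (95% interval 0.10 to 0.36, limma adjusted p of 0.0103), under the 2-fold threshold. Krt80, a type II keratin linked to cell junctions, read 7.59, 7.75 and 7.80 in normal lungs and 8.94, 7.25 and 7.35 in lung tumors 1 to 3. The first tumor lay above all normal lungs and the other tumors below them. Over all 6 arrays its log2 fold change was 0.14 (95% interval -1.07 to 1.34), without lung tumor 1 it was -0.41 with a limma adjusted p of 0.0119, and a fit blocked by slide, which leaves lung tumor 1 to be compared with the normal lungs of its own slide, gave 1.23. Krt20, known from the gut epithelium, was well above background on 1 tumor array only and was not tested.

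Krt15 was the keratin that fell. It is a type I chain of basal cells in stratified epithelia and of hair follicle stem cells. Its log2 signal was 12.43, 12.47 and 12.49 in normal lungs and 11.22, 10.90 and 10.75 in lung tumors 1 to 3, so that every tumor lay below every normal lung. The log2 fold change was -1.5 ± 0.128 (SE, n = 3 and 3 arrays), a 2.84-fold decrease with a limma adjusted p of 0.000259. In blood the Krt15 probe was not well above background on either array.

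The other basal and stress keratins did not pass the rule. Krt14, the partner of Krt5 in basal cells, read 5.32, 4.55 and 5.72 in normal lungs and 6.21, 6.0 and 6.14 in tumors on the log2 scale. Every tumor was above every normal lung, with a log2 fold change of 0.92 (95% interval 0.16 to 1.68, limma adjusted p of 0.0421), just under 2-fold. It was 1.15 when each array was shifted to its 75th percentile instead of quantile-normalized, and 1.19 without normal lung 3, which passed the rule in both cases, but 0.60 without normal lung 2 and 0.43 with normexp. Krt17, a keratin of skin appendages and wounded epithelium, read 4.03, 5.28 and 3.61 in normal lungs and 5.27, 5.26 and 4.71 in tumors. Its groups overlapped through normal lung 2, and the log2 fold change was 0.77 (95% interval -0.40 to 1.94, limma adjusted p of 0.194). Without normal lung 2 it was 1.26 and passed the rule (limma adjusted p of 0.0126), whereas it was 0.42 without normal lung 3 and 0.24 with normexp. Krt16 stayed within background in all 8 samples.

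Of the keratins of hair and of differentiated skin, 1 passed the rule. Krt73, a type II chain of the inner root sheath, read 2.94, 1.36 and 2.41 in normal lungs and 5.69, 5.32 and 5.35 in tumors on the log2 scale. It was well above background on no normal lung array and on all 3 tumor arrays, so only a bound can be given, and Krt73 was at least 3.04-fold higher in tumors (limma adjusted p of 0.00137 for the measured values). With normexp background correction its log2 fold change was 0.62, under the threshold. Krt35, a type I hair shaft keratin, read 6.25, 6.59 and 6.19 in normal lungs and 6.01, 6.0 and 5.82 in tumors, with a log2 fold change of -0.40 (95% interval -0.72 to -0.08, limma adjusted p of 0.0358). Krt1, Krt25, Krt81, Krt84 and Krt88 had log2 fold changes between 0.16 and 0.60, none of which passed.

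Across the tested keratins, 8 had all tumor arrays above all normal arrays and 2 had all tumor arrays below, where 38.1% and 34.8% of all probes tested did so. Without Krt73, which passed only through its tumor arrays, 7 of 14 lay above. By chain type, 2 of 8 tested type I keratins were higher and 1 lower, and 2 of 6 type II keratins were higher, or 1 of 5 without Krt73, beside the 13.5% and 15.5% of all probes. Krt88, which was not called, was assigned to neither chain type and stands outside these counts. The called genes thus included both chains of the Krt8 and Krt18 pair, but the neighbours Krt15 and Krt19 differed, with the former 2.84-fold lower and the latter changed by a log2 value of 0.23. Blocked by slide, which compares the single array of lung tumor 1 with the normal lungs, the log2 fold changes were 1.11 for Krt8, 2.21 for Krt18, 1.39 for Krt23, 3.46 for Krt73 and -1.24 for Krt15, with a tumor arm of 1 array. Counted as 1 normal and 2 tumor samples, where only the tumors give a spread and that spread is taken to hold for the 1 normal sample as well, Krt8, Krt15 and Krt23 no longer passed, with log2 fold changes of 1.08, -1.44 and 1.22 and limma adjusted p of 0.0636, 0.0695 and 0.0774. Krt18 and Krt73 had adjusted p of 0.0475 and 0.0352 in that fit.

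**Figure D3:**
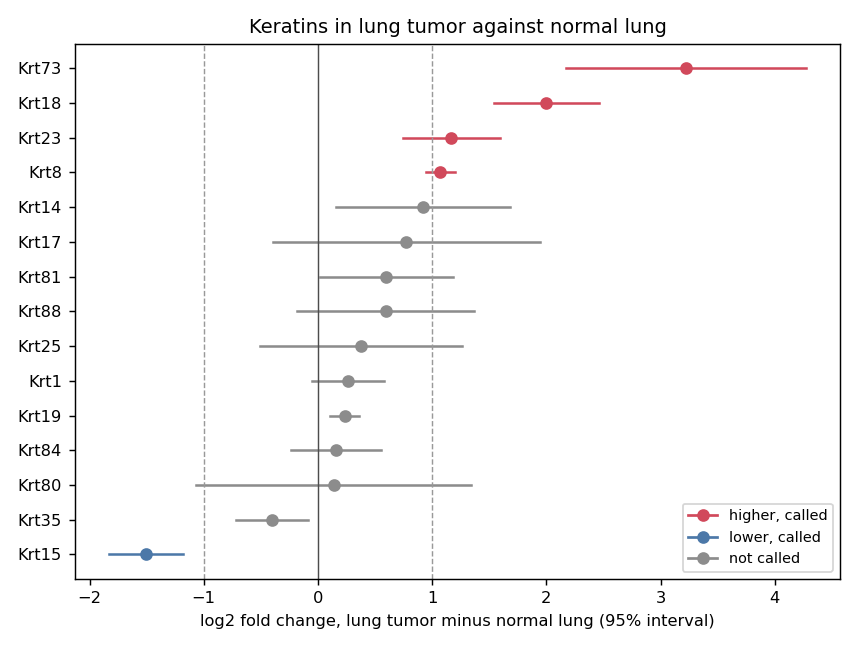
Log2 fold change of the 15 tested keratins, lung tumor minus normal lung (x axis), with points for the limma estimate over 6 arrays, lines for its 95% interval and dashed lines at 2-fold in each direction. The intervals of the called Krt8, Krt18, Krt23, Krt73 and Krt15 were clear of 0, as were those of Krt14, Krt19, Krt35 and Krt81, which were not called. That of Krt80 reached from -1.07 to 1.34.

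The stretches upstream of the annotated starts are shown for the called keratins because Krt8 and Krt18 lie side by side and rose together. RefSeq promoter entries (build GRCr8) were found for 31 of the 42 keratins, among them Krt8, Krt18, Krt23 and Krt73 but not Krt15. Each line gives the 250 bases before the start, 5′ to 3′ on the gene's strand, with capitals for TATAAA (the TATA box), GGGCGG (the GC box) or TGANTCA (the AP-1 site) on either strand.

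Krt8, chr7:135010340-135010589, minus strand: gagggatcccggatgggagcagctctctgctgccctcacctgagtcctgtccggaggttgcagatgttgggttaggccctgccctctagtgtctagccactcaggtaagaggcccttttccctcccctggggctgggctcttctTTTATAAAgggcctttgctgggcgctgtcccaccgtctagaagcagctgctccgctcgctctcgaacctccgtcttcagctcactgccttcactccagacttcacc
Krt18, chr7:135035918-135036167, plus strand: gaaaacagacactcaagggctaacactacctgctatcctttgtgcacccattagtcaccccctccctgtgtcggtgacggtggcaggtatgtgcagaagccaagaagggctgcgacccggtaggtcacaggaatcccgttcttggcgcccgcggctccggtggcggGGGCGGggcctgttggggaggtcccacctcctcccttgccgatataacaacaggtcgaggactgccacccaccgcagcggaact
Krt23, chr10:84946930-84947179, minus strand: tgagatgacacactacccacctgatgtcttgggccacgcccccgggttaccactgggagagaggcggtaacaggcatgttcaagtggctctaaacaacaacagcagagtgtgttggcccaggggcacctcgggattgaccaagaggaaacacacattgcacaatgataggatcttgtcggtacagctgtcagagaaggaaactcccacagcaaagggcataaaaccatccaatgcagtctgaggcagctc
Krt73, chr7:134815029-134815278, minus strand: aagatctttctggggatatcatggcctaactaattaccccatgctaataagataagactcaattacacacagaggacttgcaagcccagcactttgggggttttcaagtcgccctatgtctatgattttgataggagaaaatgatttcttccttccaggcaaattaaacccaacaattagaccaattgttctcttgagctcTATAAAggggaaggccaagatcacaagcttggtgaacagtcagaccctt

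The Krt8 window held TATAAA on both strands as 2 overlapping matches within a run of 8 letters, and the Krt73 window held it once. The Krt18 window held the GC box once and no TATAAA, and the Krt23 window held none of the 3 motifs. TATAAA was found in 17 of the 31 keratin windows and in 12.9% of the 33469 windows of the table, the GC box in 4 of 31 and in 30.5%, and the AP-1 site in 1 of 31 and in 6.34%. Keratins with TATAAA included the called Krt8 and Krt73 and many that were not detected in lung, such as Krt26, Krt27, Krt28 and Krt31. A match describes the letters of the window and nothing about binding.

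The wider filament network was described from lists of other intermediate filaments, desmosomes, hemidesmosomes and plakins, cornified envelope and hair proteins, keratin-associated proteins, and epithelial adhesion molecules and factors. They held 68 probes, of which 15 were under the filter, 5 were lost to outlier marks and 48 were tested. Of these, 10 were higher in lung tumors and 8 lower (20.8% and 16.7%, beside 13.5% and 15.5% of all probes), with a median log2 fold change of 0.22 beside 0.07 over all probes. Among the epithelial factors 3 of 8 tested probes were higher and 1 was lower. Elf3, an ETS factor of epithelial cells, had a log2 fold change of 2.44 ± 0.0658 (SE, n = 3 and 3 arrays, limma adjusted p of 6.23e-06), and Ovol1, a zinc finger factor of epithelial differentiation, one of 2.29 ± 0.0538. Esrp1, a splicing factor of epithelial cells, rose by 1.11. Klf4, a factor of epithelial differentiation, fell by 2.05 on the log2 scale. Cdh1 and Epcam, the adhesion molecules of most epithelia, had log2 fold changes of 0.28 and 0.58, under the 2-fold threshold.

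Of the other intermediate filaments, 3 of 13 were higher and 4 lower. Bfsp1, a filament protein known from the lens, rose by 1.87 on the log2 scale, and Gfap and Nefl rose as well. Prph, the peripherin of peripheral neurons, read 11.49, 11.56 and 11.51 in normal lungs and 6.80, 6.44 and 6.38 in tumors, with a log2 fold change of -4.98 ± 0.122 (SE, n = 3 and 3 arrays, limma adjusted p of 5.42e-06). Synm, known from muscle, had a log2 fold change of -2.27, was well above background on 1 of 3 tumor arrays, and did not pass under 4 alternatives (-0.44 with normexp, an adjusted p of 0.0978 with the methods' paired t-test, 0.124 with a slide block and 0.0814 with arrays counted once), and Nefm and Lmna were the others that fell. In the desmosomes, which anchor keratin filaments at cell contacts, Dsc2 rose by 1.83, and Pkp2 was the only other probe tested. Plec, the large linker between filaments and hemidesmosomes, had 11 tested probes with log2 fold changes from -1.47 to 0.31, of which 10 were negative and 1 was called lower. Ppl and Tgm3 fell too. Of 9 tested keratin-associated proteins, which embed keratins in the hair shaft, 8 had a positive log2 fold change and 3 were called higher. The same rule called 13.5% of all probes higher. Among the 8 was Krtap10l1, not called, which passed the filter only through its tumor arrays. The share of positive values over all probes was not counted. For Krtap1-5, Krtap31-1 and Krtap10l1, none of them called, lung tumor 1 lay within the range of the normal lungs, whose slide it shared. In the 3 called, every tumor array lay above every normal array.

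**Figure D4:**
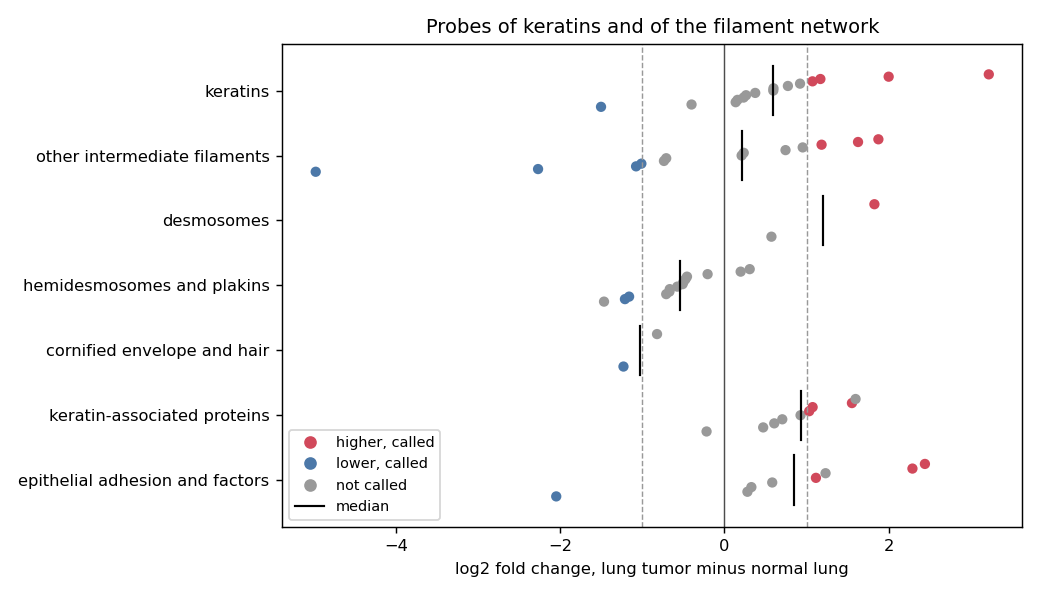
Log2 fold change, lung tumor minus normal lung (x axis), for each tested probe of the keratins and of 6 lists of the filament network (rows), with red points called higher, blue points called lower, grey points not called and a black bar at the median. The keratins ran from -1.5 (Krt15) to 3.22 (Krt73), and the lowest point was Prph at -4.98. The point of Krt73 is its measured value, for which only a bound of at least 3.04-fold can be given.

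Markers of cells that carry keratins moved between the lung groups as well. Of all probes tested, 13.5% were called higher and 15.5% lower, which stands beside each count here. Sftpc, Pdpn, Aqp5, Scgb3a1 and Scgb3a2 passed the filter but were not tested because of outlier marks. The summed signals below include them. Type 1 alveolar markers, of cells that carry simple keratins, were lower in tumors for 4 of 5 tested probes, with a summed signal of 824109 to 909734 on the normal arrays and 291080 to 309012 on the tumor arrays. None of 5 type 2 alveolar markers was called, with sums of 784603 to 851853 and 972568 to 1038010. Club cell markers were higher for 2 of 3, Bpifa1 at a log2 fold change of 2.90 and Cyp2f4 at 1.08, while Scgb1a1 was not called at -0.07. Their list had sums of 296986 to 315802 and 389503 to 426445. Of the ciliated cell markers, Tppp3 was lower at a log2 fold change of -1.65 and Rsph1 was not called at 0.85, with sums of 128661 to 134836 and 57133 to 61303. Mesothelial markers, of another cell type that carries simple keratins, were lower for all 3, with sums of 14496 to 16642 and 1479 to 1933. Of the basal airway markers, 1 of 3 was called higher, Ngfr at a log2 fold change of 2.95, with sums of 33427 to 35928 and 33486 to 39277. Every marker of these lists was well above background on all 6 lung arrays except Rtkn2, a type 1 marker that was so on the tumor arrays only, and Tekt1, a ciliated cell marker that was so on none, and their part in the keratin values was not tested.

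In blood, each group had 1 array, so no test was possible and no difference has a replicate check. Of the 42 keratins, 11 were well above background on both arrays, 8 on 1 and 23 on none. The 17 with a value on both arrays were compared, and after quantile normalization of both arrays 2 of them were higher in NNK blood by 2-fold or more and 8 were lower, where the same fold held for 23.1% (higher) and 19.1% (lower) of all 14452 probes compared. The median log2 fold change was -0.96 for keratins and -0.11 for all probes compared. The counts were 2 and 8 with a shift to the 75th percentile, 2 and 9 with all 8 arrays quantile-normalized together, and 2 and 10 in the authors' normalized values. They were 3 and 1 without normalization between the arrays, and 1 and 0 with normexp background correction. The 75th percentile of the processed signal was 95.4 in control blood and 206 in NNK blood.

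Only Krt17, Krt35, Krt36 and Krt72 among the keratins at least 2-fold lower were well above background on both arrays. Krt36, a hair shaft keratin, had a processed signal of 52.6 in control blood and 40.2 in NNK blood, which was 3.27-fold lower after normalization. Krt17 had 347 and 296 (2.26-fold lower), whereas Krt35 with 82.3 and 86.4 and Krt72 with 29.0 and 33.3 were slightly higher in NNK blood before normalization and 2.17-fold and 2.26-fold lower after it. After normalization, keratins not well above background in NNK blood were at least 3.31-fold lower for Krt1, 3.16-fold for Krt80, 1.82-fold for Krt33b and 1.52-fold for Krt40. In deposited signal, Krt1 had 40.4 in control and 20.99 in NNK blood, and Krt80 had 38.5 and 16.8. Those ratios are smaller than the bounds, which thus hold only after normalization. Krt33b, with deposited signals of 21.3 in control and 25.02 in NNK blood, turned the other way without normalization, and Krt40, with 17.5 and 12.9, differed by a log2 value of only -0.44 there. Conversely, Krt2, a type II chain of upper epidermis, had a signal of 2.39 in control blood and 90.1 in NNK blood and was at least 2.97-fold higher, and Krt8 had 2.48 and 49.995 and was at least 1.57-fold higher. Krt8 in blood thus stood at 49.995 or below, whereas its signal was 44822 to 47327 on the normal lung arrays and 90266 to 99343 on the tumor arrays. Krt42, at 2.39 in control blood and 722 in NNK blood, was left out because its NNK spot was marked as an outlier.

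Several keratins were brighter in blood than in lung. In deposited signal, 8 of the 11 keratins well above background in both blood samples had both of their blood values above all 6 lung values, beside 29.1% of the 11767 probes so detected. They were the hair shaft keratins Krt36, Krt39, Krt81 and Krt84, the root sheath keratins Krt25 and Krt72, and Krt17 and Krt88. When all 8 arrays were quantile-normalized together, all 11 lay above their lung values, beside 46.5% of those probes. This comparison of tissues was not tested. Krt88 had a signal of 26711 in control blood and 20100 in NNK blood, against 23 to 71 over the lung arrays. Krt84, a type II hair keratin also known from the tongue, had 8587 and 10633, the latter from a marked spot, against 22.1 to 37.4. Krt25, a type I chain of the inner root sheath, had 481 and 723 against 14 to 51.9. Krt19 was bright in blood too (10589 and 10433), below its lung values of 47344 to 59933 in deposited signal but above them when all 8 arrays were quantile-normalized together (log2 values of 15.30 and 15.22 in blood and 14.83 to 15.19 in lung). Krt18, Krt15 and Krt23 were not well above background in blood. The keratin-associated protein probes had a summed signal of 29803 and 32416 in blood against 690 to 1646 in lung. The blood sums came mostly through Krtap13-2 (17588.5 and 15000.5) and Krtap10-10l1 (7005 and 10610), whereas others were dim, such as Krtap14 at 2.39 and 6.25. Blood and lung arrays lay on different slides, so tissue and slide cannot be told apart here. Of the epithelial adhesion molecules and factors, Elf3 (6272 and 7796), Esrp1 (11987 and 10296), Ovol1 (2682 and 3635) and Epcam (810 and 486) were bright in both blood samples. The other members of that list were below these in control blood, Cdh1 at 9.15 and 60.7 among them. Among the type 2 markers, Napsa was bright at 2619 and 8733, and Slc34a2 stood at 158 and 215. Sftpa1 (28.1 and 73.8), Lamp3, Sftpb and Sftpc were dimmer, with Sftpc the lowest at 2.43 and 7.44. Their part in the blood values was not tested.

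**Figure D5:**
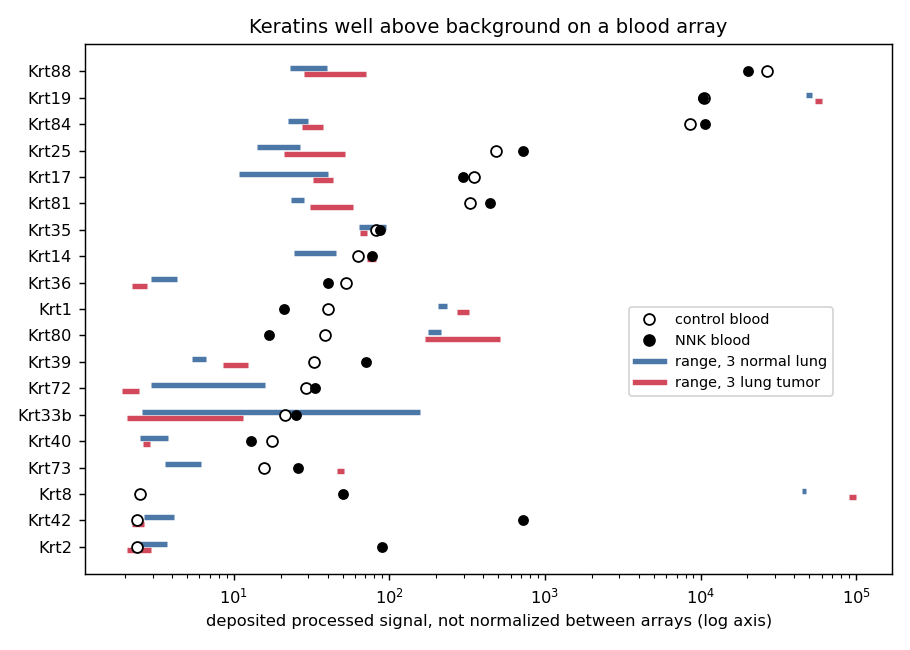
Deposited processed signal on a log axis, not normalized between arrays, of the 19 keratins well above background on at least 1 blood array, with an open circle for control blood, a filled circle for NNK blood and bars for the range over the 3 normal lung (blue) and 3 lung tumor arrays (red). Krt88, Krt84, Krt25, Krt17 and Krt81 lay above their lung ranges on both blood arrays, and Krt19, Krt8, Krt1 and Krt80 lay below theirs.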

How the data were processed

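Lung tumor, normal lung and blood RNA was hybridized in 1 colour by the authors, scanned and read with Agilent Feature Extraction (version 10.5.1.1, per the labels). The intensity used is the deposited processed signal, which that software had already background-corrected. The authors' table of log2 values, deposited after quantile normalization in GeneSpring, was used as an alternative, as its match to the log2 signals bears out. The number of arrays limits the precision.

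Log2 signals were quantile-normalized within the 6 lung and within the 2 blood arrays, spots of a probe were averaged, and probes on at least 3 lung arrays (at least 1 blood array) well above background, with 2 values a group, were tested with limma 3.58.1 in R 4.3.3 (tested on simulated data). A bound used the higher of the dim probe's value and the lowest value well above background on that array. RefSeq accessions named 14274 of 15323 mRNA probes (93.2%). All tested keratins were described, and of the network lists the 3 largest called changes in each direction, others being named after their values were seen. Members and lists were chosen with earlier results of these data known. The labels call the tumors matched, and deviations of same-numbered tumors and normal lungs correlated at 0.14, -0.04 and 0.16. The alternatives were other scalings, background correction, filters and marks, the methods' t-test, replicate and slide blocks, arrays counted once and each array left out.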

Additional observations from a re-analysis of the deposited data

How the results depend on the processing

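The number of keratins higher in lung tumors was 4 and stayed within 3 to 5 when each array was left out, but was 2 with normexp, also at the unadjusted p, and 2 with near-identical arrays counted once, where the number lower went from 1 to 0. With the replicate number as a block, the pairing left 4 higher and 1 lower, and no keratin call changed. The methods' t-test gave 4 and 1, and its paired form 3 and 1, with Krt18 at an adjusted p of 0.0823. Krt80 reversed to -0.41 without lung tumor 1, ran up to 0.434 without another array, and Krt88 reversed to -0.036 with the slide as a block. Of the filament and junction probes, 10 were higher, against 5 with normexp, 4 with the paired t-test and 6 with arrays counted once (7 to 11 leaving out an array). The 8 lower became 3 with the 75th percentile shift, 3 with normexp, 5 with the authors' values, 4 with the paired t-test, 2 with the slide block, 2 with arrays counted once and 4 to 9 leaving out an array, lowest without lung tumor 2 or 3. In blood, 2 higher and 8 lower became 1 and 0 with normexp, 0 and 4 with both arrays required above background, and 3 and 1 without normalization between arrays, a setting chosen after seeing the data. Under that setting Krt33b, Krt35 and Krt72 reversed to 0.23, 0.070 and 0.20. The causes of these differences were not tested. Dim probes, such as Krt73 in normal lung, have only a bound.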
